A study of Mus musculus with 6 samples.

Results

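The p53 family members *Trp53* and *Trp63*, the p53 inhibitor *Mdm2*, the cell cycle inhibitor *Cdkn1a*, the *GADD45* genes *Gadd45a*, *Gadd45b* and *Gadd45g*, and the pro-apoptotic genes *Bax*, *Bbc3* and *Pawr* were examined in YAP2-5SA-∆C skin. They are 10 of the 26579 genes in the count matrix and were found by matching its Ensembl identifiers to these names in GENCODE release M21 on GRCm38. Each name matched a single identifier. RNA-Seq had been performed on dorsal neck skin of 3 wildtype (WT) and 3 YAP2-5SA-∆C (TG) mice, all female littermates aged 33 days. TG mice carry a mildly activated YAP mutant in the Krt5/14-positive keratinocytes of the basal layer (the promoter is not given in the sources used here), and were taken at a time when their skin changes could first be seen. WT littermates lack the transgene. Whole biopsies were sequenced, so the values below average the basal keratinocytes with hair follicles, dermis, muscle, fat and immune cells, and fewer cells of a type cannot be told apart from less RNA per cell. The p-values measure only the spread between these 6 libraries.

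The protein p53 (*Trp53*) is a transcription factor that is held at a low level by the ubiquitin ligase MDM2 and is stabilised when DNA is damaged. It then activates *Cdkn1a*, which encodes the cyclin-dependent kinase inhibitor p21, *Gadd45a*, *Bax*, *Bbc3* (encoding PUMA) and *Mdm2* itself. Its relative p63 (*Trp63*) is the regulator of the basal layer of stratified epithelia, where it maintains keratinocyte identity and activates *Krt5* and *Krt14*. GADD45 proteins bind PCNA, cyclin B/CDK1 and the kinase MAP3K4 in cells under stress, and PAWR (PAR-4) is a pro-apoptotic protein that binds WT1 and atypical protein kinase C. Because p53 is controlled chiefly through its protein, levels of *Trp53* RNA do not report p53 activity.

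Promoter sequences of 9 of the 10 genes were found in RefSeq on GRCm38.p6, in 12 windows that reach from 250 bases before to 50 bases after a transcription start. *Trp63* was not matched. These windows were searched on both strands for the p53 half-site, which is the decamer that p53 binds in pairs, for the E-box CACGTG, for TATAAA, and for CATTCC, the motif of the TEAD factors through which YAP acts. A p53 half-site was present in 5 of the 12 windows, each of a different gene, compared with 8.36% of all 32851 promoter windows. The following 30-base stretches, read 5′ to 3′ on the strand of the gene, show the half-sites of these p53 target genes and of *Trp53*, with the half-site in capitals.
Gadd45a (chr6:67037428-67037457, minus strand): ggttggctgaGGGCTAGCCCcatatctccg
Bax (chr7:45467080-45467109, minus strand): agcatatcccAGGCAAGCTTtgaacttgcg
Mdm2 (chr10:117710925-117710954, minus strand): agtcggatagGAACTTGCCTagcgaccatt
Trp53 (chr11:69580274-69580303, plus strand): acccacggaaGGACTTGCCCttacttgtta
Cdkn1a (chr17:29090896-29090925, plus strand): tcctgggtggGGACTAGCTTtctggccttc
Cdkn1a (chr17:29090918-29090947, plus strand): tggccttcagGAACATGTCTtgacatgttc
CACGTG was present in 5 of the 12 windows (7.15% of all windows), TATAAA in 3 (13.6%) and CATTCC in 0 (14.7%). Such matches describe letters only and say nothing of binding in skin.

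Between 11225705 and 19505036 counts fell on genes in each library. Values are given as CPM, counts per library size after TMM scaling, and differences as the log2 of TG over WT with standard error (SE) from edgeR's quasi-likelihood fit across the 15102 genes that reached 1 CPM in at least 3 libraries. *Yap1* measured 131 ± 9.47 CPM in WT and 136 ± 7.32 CPM in TG mice (edgeR log2 change 0.06, adjusted p = 0.636), so the counts of the mouse gene did not set the genotypes apart. TG2 stood apart from the other libraries in the first dimension of a multidimensional scaling plot, with a value of 2.24 compared with 0.30 and 0.26 for TG1 and TG3, and WT values of −1.20 to −0.51. The basal keratinocyte markers summed to 4097 to 4998 CPM in WT and 6619 to 8361 CPM in TG libraries, and fibroblast markers were abundant in all libraries, so the labelled tissue was present in each. Hair follicle markers were lower in TG skin, with sums of 13830 to 17300 CPM in WT and 1522 to 9238 CPM in TG, and all 13 measured markers separated the groups.

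Of the 10 genes, 0 were changed in edgeR's quasi-likelihood test at an adjusted p below 0.05, compared with 1.91% of all genes tested (0.464% lower and 1.44% higher in TG). At an unadjusted p below 0.05, 2 of the 10 passed, *Gadd45a* and *Pawr*, both lower, where 26.3% of all genes passed and 13% passed in that direction. The same 2 genes were called lower by edgeR's likelihood-ratio test, which called 10.4% of all genes (4.87% lower), and by DESeq2, which called 10.5% (4.18% lower). Limma's voom called neither of them, and called 1.65% of all genes. The 3 TG values lay below the 3 WT values for *Gadd45a*, *Pawr* and *Bax*, and above them for 0 of the 10, where 18.2% of all genes were lower and 15.5% higher without overlap. Against these backgrounds, counts of 2 and 3 genes among 10 are too few to be read as a property of the group. *Gadd45a* and *Pawr* were among the genes that the study picked from these same libraries for follow-up, so their direction here is not independent evidence. In separate experiments the study measured both by RT-PCR in HaCaT keratinocytes. There *GADD45A* and *PAWR* were higher after knockdown of YAP, and in quiescent cells *PAWR* was lower and *GADD45A* unchanged.

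**Figure D1:**
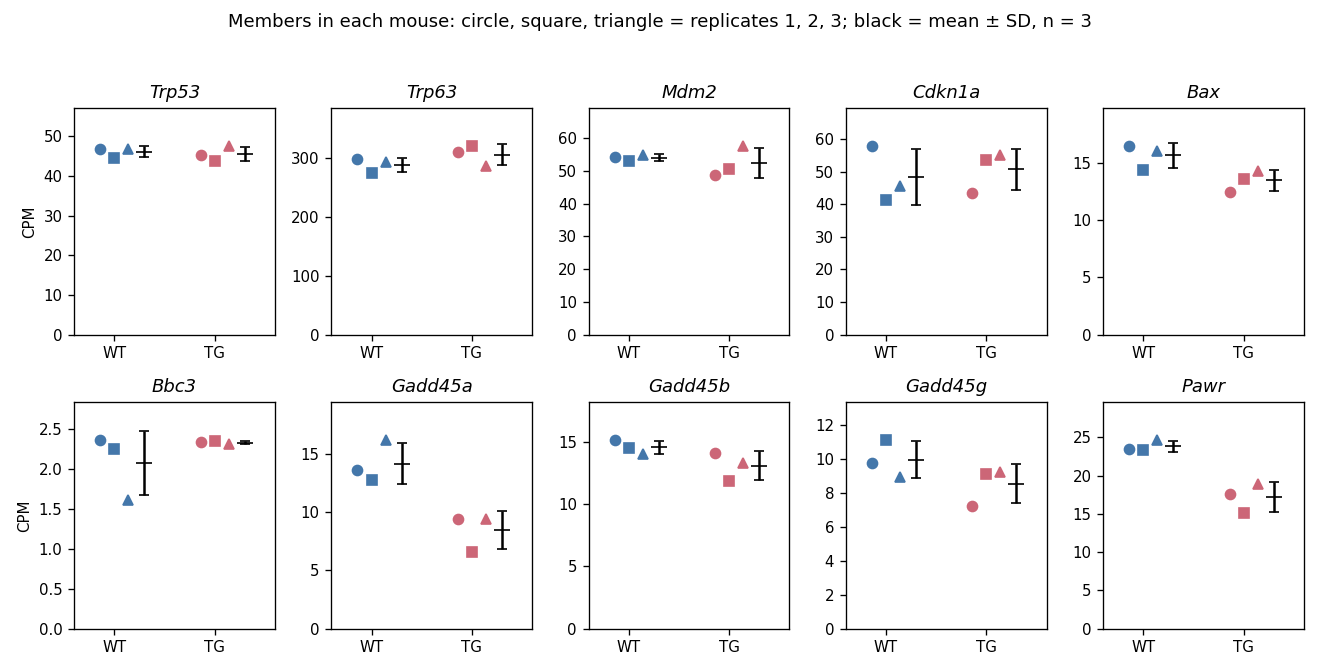
CPM of each of the 10 genes (vertical axes start at 0) in the 3 WT mice (blue) and 3 TG mice (red), with symbols for replicates 1, 2 and 3 and the mean ± SD in black. The groups are apart for *Gadd45a*, *Pawr* and *Bax* and overlap for the other 7 genes.

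*Gadd45a* (ENSMUSG00000036390, chr6:67035096-67037457, minus strand), which encodes a stress-induced inhibitor of CDK1 and activator of p38 signalling, showed the largest difference of the 10 genes. It measured 13.6, 12.7 and 16.2 CPM in WT1, WT2 and WT3, and 9.40, 6.59 and 9.36 CPM in TG1, TG2 and TG3. All TG values lay below all WT values, and TG2 was the lowest. The means were 14.2 ± 1.80 CPM and 8.45 ± 1.61 CPM (SD, n = 3), a difference of −40.15% on the linear scale of the fitted fold. Its log2 fold change was −0.74 (SE 0.17, 95% interval −1.14 to −0.35), which 4.12% of all genes tested exceeded in the same direction, but edgeR's quasi-likelihood adjusted p was 0.0620. With the likelihood-ratio test the adjusted p was 0.00355, with DESeq2 0.00564 and with voom 0.0628. The gene shares 337 exon bases with *E230016M11Rik* on the opposite strand, which had 50 to 91 counts a library and a log2 change of −0.15 (SE 0.18, edgeR adjusted p = 0.642). As the strand setting of the counting is not stated, reads of both genes may not be fully separated, although the *Gadd45a* counts were larger, at 112 to 247.

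*Gadd45b* and *Gadd45g*, whose products act on the same MAP3K4 and p38 route and respond to cytokine and growth signals, did not separate the groups. *Gadd45b* (ENSMUSG00000015312, chr10:80930073-80932204, plus strand) measured 15.2, 14.5 and 14.1 CPM in WT and 14.1, 11.9 and 13.4 CPM in TG mice, so that TG1 reached WT3. *Gadd45g* (ENSMUSG00000021453, chr13:51846678-51848468, plus strand) measured 9.73, 11.1 and 8.94 CPM in WT and 7.23, 9.12 and 9.24 CPM in TG mice, and only TG1 lay below all WT values. The log2 change of *Gadd45b* was −0.15 (95% interval −0.38 to 0.07, edgeR adjusted p = 0.345). That of *Gadd45g* was −0.22 (95% interval −0.55 to 0.10, edgeR adjusted p = 0.346). With 1 library left out, *Gadd45b* ranged from −0.19 to −0.07 and *Gadd45g* from −0.28 to −0.10, with the smallest values without TG2 and TG1, respectively. Both intervals include no change, and only that of *Gadd45g* reaches the log2 change of *Pawr* (−0.47).

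Per length of exon, the 3 *GADD45* genes were expressed at similar levels in WT skin. They measured 8.02 ± 1.02 (*Gadd45a*), 9.18 ± 0.347 (*Gadd45b*) and 8.46 ± 0.928 RPKM (*Gadd45g*), and the 3 libraries of neighbouring genes overlapped. In TG skin *Gadd45a* lay below *Gadd45b* and *Gadd45g* in every library, with 4.79 ± 0.914 RPKM compared with 7.27 ± 0.960 for *Gadd45g* and 8.26 ± 0.717 for *Gadd45b*. It was also the lowest of the 3 in WT1 (7.70 RPKM) and WT2 (7.21 RPKM), but the highest in WT3 (9.17 RPKM). The sum of the 3 genes was 25.5, 25.8 and 25.7 RPKM in the WT mice and 20.4, 19.0 and 21.6 RPKM in the TG mice. The WT sums were close to each other (25.7 ± 0.125, SD), although counting alone gives each gene an error of 6.54% to 7.88% in WT. So small a spread of the sum is not read as a trait of WT skin. *Gadd45a* supplied 30.1%, 27.9% and 35.7% of that sum in WT and 26.1%, 19.7% and 24.6% in TG mice. Within a library, the log2 ratio of *Gadd45a* to *Gadd45b* was −0.16, −0.19 and 0.20 in WT and −0.59, −0.85 and −0.51 in TG mice, a difference of −0.60 between the means. The exact permutation test (two-sided) gave p = 0.1, the smallest that 3 against 3 libraries allow, and p = 0.233 after adjustment over the 7 ratios tested. The ratio of *Gadd45a* to *Gadd45g* differed by −0.53, with groups that overlapped (exact permutation p = 0.2, adjusted 0.35), and this difference was −0.31 without TG2, −0.36 without WT3 and −0.74 without TG1.

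**Figure D2:**
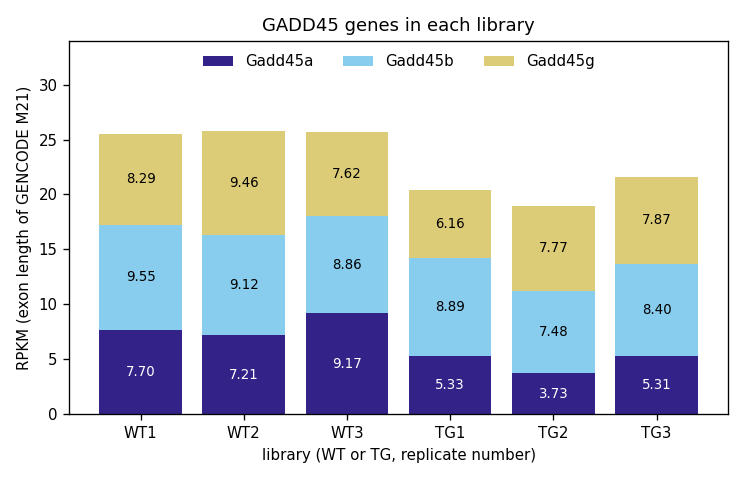
RPKM of *Gadd45a*, *Gadd45b* and *Gadd45g* stacked for each WT and TG library. The stacks reach 25.5 to 25.8 RPKM in WT and 19.0 to 21.6 RPKM in TG mice, and the *Gadd45a* segment is smallest in TG2 (3.73 RPKM).

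*Pawr* (ENSMUSG00000035873, chr10:108332121-108414240, plus strand) was the other gene whose 95% interval lay below 0. It had 23.5, 23.3 and 24.6 CPM in WT1, WT2 and WT3, and 17.6, 15.1 and 18.9 CPM in TG1, TG2 and TG3. The WT mice were close to each other and the TG mice more spread, with TG2 again lowest. The coefficient of variation in WT (3.00%) was below the error from counting alone (5.15%), so this closeness is not read as a trait of WT skin. The means were 23.8 ± 0.716 and 17.2 ± 1.93 CPM (SD, n = 3), a difference of −27.84% on the linear scale of the fitted fold. The log2 fold change was −0.47 (SE 0.10, 95% interval −0.70 to −0.24), which 7.55% of all genes tested exceeded in the same direction. EdgeR's quasi-likelihood adjusted p was 0.0563, that of the likelihood-ratio test 0.0360, of DESeq2 0.0134 and of voom 0.0579. Without TG2 the log2 change of *Pawr* was −0.37 (edgeR adjusted p = 0.0561) and that of *Gadd45a* was −0.57 (edgeR adjusted p = 0.0564).

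In the libraries that hold less *Gadd45a* and *Pawr*, other cell types were also at different levels. TG2, which was lowest for both genes, also had the lowest summed hair markers (1522 CPM) and melanocyte markers (151 CPM). In the other TG libraries the melanocyte sums were 249.1 and 261.2 CPM, against 407.6 to 477.7 CPM in WT, and all 5 melanocyte markers separated the groups. The macrophage sums were 429.8 to 510.4 CPM in WT and 624 to 702.6 CPM in TG, higher for all 6 markers without overlap. Neutrophil markers summed to 8.74 to 12.8 CPM in WT and 20.6 to 29.5 CPM in TG mice, with *Mpo* and *Retnlg* near 0, and T cell markers to 7.90 to 9.46 CPM and 9.46 to 13.5 CPM, with *Cd3d*, *Trac* and *Cd8a* near 0. Stress keratinocyte markers summed to 1221 to 1624 CPM in WT and 1342 to 2535 CPM in TG mice. Of the 7 markers, 3 were higher at an edgeR adjusted p below 0.05. Without overlap, 4 were higher and 1, *Krt17*, was lower (log2 change −0.63, edgeR adjusted p = 0.128). Suprabasal keratinocyte markers summed to 5000 to 5790 CPM in WT and 6020 to 10340 CPM in TG mice, highest in TG2, with positive log2 changes for all 6 measured and 1 separated. Fibroblast markers summed to 9449 to 12800 CPM and 12260 to 15940 CPM, with 4 of 6 higher without overlap. Skeletal muscle markers summed to 1330 to 6486 CPM and 1275 to 3293 CPM, with a median log2 change of −1.12 and groups that overlapped for all 6 markers. Endothelial markers summed to 91.0 to 108.2 CPM in WT and 109.8 to 130.2 CPM in TG mice, with 2 of 4 higher without overlap. The sums overlapped for cell cycle markers (1196 to 1313 CPM and 1065 to 1289 CPM) and adipocyte markers (622.2 to 869.2 CPM and 544.3 to 901.1 CPM). The part of these cell types and states in the values of *Gadd45a* and *Pawr* was not tested.

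**Figure D3:**
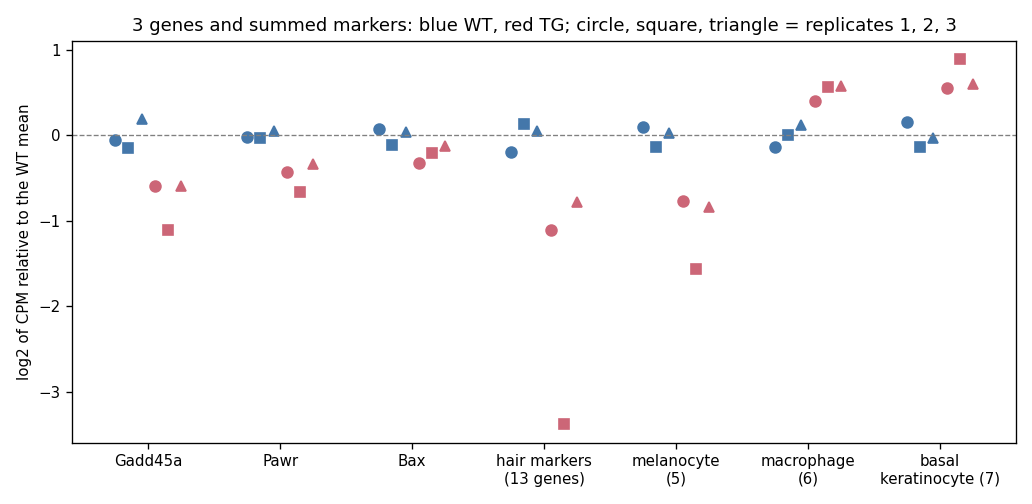
Log2 of CPM relative to the WT mean for *Gadd45a*, *Pawr*, *Bax* and the summed CPM of marker lists in each WT (blue) and TG (red) library, with symbols for replicates 1, 2 and 3. TG2 is lowest for *Gadd45a*, *Pawr* and the hair and melanocyte sums.

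*Bax* and *Bbc3* encode BCL2 family members that lead to permeabilisation of the mitochondrial outer membrane, BAX as the pore-forming effector and PUMA as an antagonist of the anti-apoptotic members. *Bax* (ENSMUSG00000003873, chr7:45461697-45466898, minus strand) measured 16.5, 14.4 and 16.1 CPM in WT and 12.5, 13.6 and 14.35 CPM in TG mice, and the groups lay just apart, with 14.44 CPM in WT2 and 14.35 CPM in TG3. Its log2 fold change was −0.22 (95% interval −0.44 to 0.01, edgeR adjusted p = 0.202), and it overlapped between groups under RLE and upper-quartile scaling and without WT1, TG1 or TG2. It shares 192 exon bases on the same strand with *Gm45808*, which is not in the matrix. *Bbc3* (ENSMUSG00000002083, chr7:16308393-16318205, plus strand) was expressed at the lowest level of the 10 genes, with 2.36, 2.25 and 1.62 CPM in WT and 2.34, 2.35 and 2.31 CPM in TG mice. These values rest on 17 to 43 counts a library, and its log2 change was 0.15 (95% interval −0.30 to 0.59, edgeR adjusted p = 0.658), with 0.02 to 0.25 when 1 library was left out. The log2 ratio of *Bbc3* to *Bax* was −2.80, −2.68 and −3.31 in WT and −2.42, −2.53 and −2.64 in TG mice (exact permutation p = 0.1, the smallest possible, adjusted 0.233), and the difference of 0.40 became 0.21 without WT3, in which 17 counts were read. The ratio of *Bax* to the anti-apoptotic *Bcl2l1* differed by −0.04 with overlapping groups (exact permutation p = 0.8).

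*Trp53* (ENSMUSG00000059552, chr11:69580359-69591873, plus strand) was the steadiest gene between the groups. It measured 46.9, 44.5 and 46.8 CPM in WT and 45.4, 43.9 and 47.6 CPM in TG mice, a log2 change of −0.01 (95% interval −0.16 to 0.13, edgeR adjusted p = 0.898). The sign of so small a value turned under upper-quartile scaling and under 4 of the 6 fits that leave out a library, so no direction is given. *Mdm2* (ENSMUSG00000020184, chr10:117688875-117710758, minus strand), which is both a p53 target and the ligase that degrades p53, measured 54.2, 52.9 and 54.9 CPM in WT and 48.8, 50.6 and 57.5 CPM in TG mice. Its log2 change was −0.04 (95% interval −0.22 to 0.13, edgeR adjusted p = 0.737). The log2 ratio of *Mdm2* to *Trp53* was 0.23 ± 0.02 in WT and 0.20 ± 0.09 in TG mice (SD, n = 3, exact permutation p = 0.7).

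*Cdkn1a* (ENSMUSG00000023067, chr17:29090976-29100727, plus strand) varied more among mice than between the groups. It measured 57.8, 41.3 and 45.5 CPM in WT and 43.3, 53.5 and 55.1 CPM in TG mice, and the log2 change of 0.07 had a 95% interval of −0.27 to 0.42 (edgeR adjusted p = 0.787). Its coefficient of variation was 17.8% in WT and 12.6% in TG mice, compared with 3.00% and 4.04% for *Trp53*. The log2 ratio of *Cdkn1a* to *Trp53* was 0.05 ± 0.22 in WT and 0.14 ± 0.19 in TG mice (SD, n = 3, exact permutation p = 0.8). *Cdkn1a* overlaps *AC167363.2* on the opposite strand by 273 exon bases, and that gene is not in the matrix.

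*Trp63* (ENSMUSG00000022510, chr16:25683763-25892102, plus strand) had the highest level of the 10 genes, 34.4 ± 1.47 RPKM in WT and 36.49 ± 2.097 RPKM in TG skin. It measured 298.2, 274.7 and 293 CPM in WT and 311.3, 320.6 and 286.6 CPM in TG mice, with TG3 inside the WT range. The log2 change was 0.08 (95% interval −0.08 to 0.25, edgeR adjusted p = 0.459). Over the same libraries *Krt14*, which p63 activates, rose from 1648 ± 19.6 to 3187 ± 300.2 CPM (SD, n = 3, edgeR log2 change 0.95, adjusted p = 0.0300), a call that was lost in the replicate block fit and without WT2, WT3 or TG3, where 0 of all genes passed and its log2 change was 0.93 to 0.95. The log2 ratio of *Trp63* to *Krt14* was therefore −2.48, −2.58 and −2.48 in WT and −3.19, −3.41 and −3.53 in TG mice, a difference of −0.86 (exact permutation p = 0.1, the smallest possible, adjusted 0.233).

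**Figure D4:**
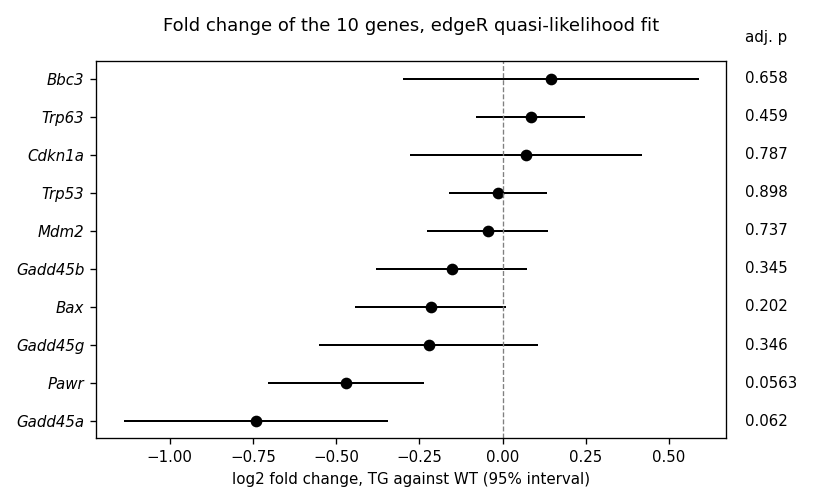
Log2 fold change of the 10 genes in TG against WT, with 95% intervals from edgeR's quasi-likelihood fit. The intervals of *Gadd45a* (−1.14 to −0.35) and *Pawr* (−0.70 to −0.24) lie below 0 and the other 8 reach across it.

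Per length, the highest and the lowest gene stood clear of the rest. In WT skin *Trp63* was followed by *Pawr* (13.7 RPKM) and *Cdkn1a* (13.6 RPKM), then by *Trp53* (11.4 RPKM) and *Mdm2* (10.6 RPKM), with *Bbc3* last at 0.978 RPKM. The libraries of *Trp63* lay apart from those of *Pawr*, and those of *Gadd45a* apart from those of *Bbc3*. *Cdkn1a* lay only just apart from *Trp53* (11.62 RPKM in WT2 against 11.61 RPKM in WT1). *Trp53* also lay only just apart from *Mdm2* (11 RPKM in WT2 against 10.8 RPKM in WT3). The other neighbours in this order overlapped. In TG skin *Pawr* (9.84 RPKM) had moved below *Trp53* (11.3 RPKM) and *Mdm2* (10.3 RPKM), although it overlapped with *Mdm2*, and *Gadd45a* remained second to last. Levels per length rest on the exon union of GENCODE M21 and not on the isoforms present in skin, so neighbours of similar level are not ranked firmly.

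The wider pathway was described with 7 gene lists, which together hold 114 genes outside the 10. Of these, 105 were tested and 2 changed in edgeR's quasi-likelihood test, *Krt14* higher and *Ppp1r13b* lower, a share near the 1.91% of all genes tested, and the median log2 change of the 105 genes was −0.01, as for all genes tested. *Ppp1r13b* encodes ASPP1, a cofactor that steers p53 to its apoptotic targets. It measured 51.5, 55.5 and 62.0 CPM in WT and 39.5, 38.0 and 40.1 CPM in TG mice (log2 change −0.52, SE 0.08, edgeR adjusted p = 0.0401), and this call was lost in the same fits as that of *Krt14* and also without TG1 (edgeR adjusted p = 0.0709), with log2 changes of −0.54 to −0.44 in these fits. The p53 family and its regulators had 21 tested genes, of which 1 was lower and 0 higher at that threshold, and a median of 0.01. Among them the checkpoint kinase gene *Atr* measured −0.24 (edgeR adjusted p = 0.0619) and *Trp53bp1*, which encodes a p53-binding repair protein, −0.16 (edgeR adjusted p = 0.134).

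Among the 32 tested p53 target genes 0 passed at an adjusted p below 0.05, with 15 positive and 17 negative log2 changes and a median of −0.01. Beside *Gadd45a*, the lowest p-values were those of *Aen* and *Cd82*. The exonuclease gene *Aen* had 46.1 ± 3.17 CPM in WT and 34.4 ± 2.85 CPM in TG mice (log2 change −0.42, edgeR adjusted p = 0.0547). The tetraspanin gene *Cd82* measured −0.21 (edgeR adjusted p = 0.0700). The BCL2 family had 13 tested genes, 0 of which passed, and a median of 0.10. Its genes with the lowest p were *Bid* (0.55, edgeR adjusted p = 0.0548), *Pmaip1* (0.56, edgeR adjusted p = 0.0986) and *Bok* (0.20, edgeR adjusted p = 0.169). These 3 had TG values above the WT values, as did 15.5% of all genes, while *Bax* (−0.22) was lower without overlap and the groups overlapped for the pro-apoptotic genes *Bak1* (−0.06), *Bad* (−0.06), *Bmf* (0.10), *Bcl2l11* (0.16) and *Bbc3* (0.15), which are named here after their values were seen.

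In the apoptosome, caspases and inhibitors, 0 of 20 genes passed and the median was 0.00. The initiator caspase gene *Casp8* (0.34, edgeR adjusted p = 0.0505), the inhibitor of apoptosis *Birc3* (0.59, edgeR adjusted p = 0.0516) and the TNF receptor gene *Tnfrsf1a* (0.44, edgeR adjusted p = 0.0547) had the lowest p-values. Among the *GADD45* partners and other GADD genes 0 of 13 passed, 11 had a negative and 2 a positive log2 change, and the median was −0.15. *Mapk14*, which encodes p38, measured 0.18 (edgeR adjusted p = 0.0992), and *Ppp1r15a*, which encodes GADD34, measured −0.32 (edgeR adjusted p = 0.10). For the PAWR partners 0 of 7 passed, 5 values were negative, and the median was −0.23, with *Hspa5*, the chaperone that binds PAWR on the cell surface, at −0.35 (edgeR adjusted p = 0.134) and *Prkci*, an atypical protein kinase C, at −0.23 (edgeR adjusted p = 0.136). These last lists are small and include *Gadd45a*, *Gadd45b*, *Gadd45g* and *Pawr* themselves.

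Of the 18 p63 target genes of keratinocytes, 1 rose, *Krt14*, and 0 fell, and the median was 0.10. *Krt5*, the partner of *Krt14*, measured 870.3 ± 172.3 CPM in WT and 1430 ± 306.1 CPM in TG mice (edgeR log2 change 0.72, adjusted p = 0.0805), and the homeobox gene *Dlx3*, which is also expressed in hair, −0.73 (edgeR adjusted p = 0.112). Both keratins are also on the list of basal keratinocyte markers, all 7 of which had positive log2 changes, 4 of them without overlap, and the part of that cell type in these values was not tested.

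**Figure D5:**
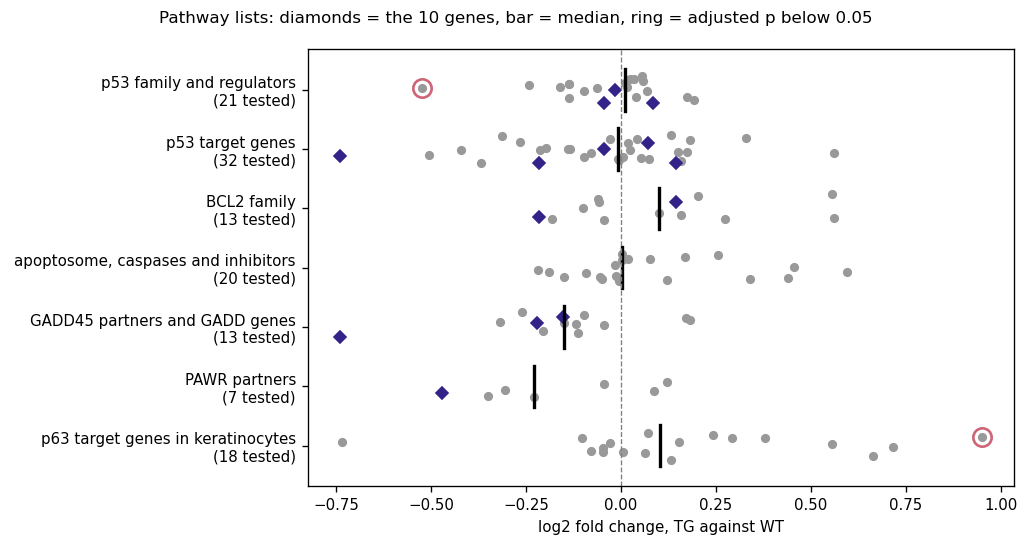
Log2 fold change in TG against WT of every tested gene of the 7 lists, with the 10 genes as diamonds, the median as a bar and a ring around genes with an adjusted p below 0.05. Medians lie between −0.23 (PAWR partners) and 0.10 (BCL2 family and p63 targets), and *Ppp1r13b* and *Krt14* carry rings.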

How the data were processed

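RNA-Seq counts from 3 WT and 3 TG mice were used. The authors aligned read pairs against GRCm38 using TopHat2 (version 2.0.12 in the submitters' processing notes) on Bowtie2 (version 2.1.0), and deposited raw HTSeq counts of uniquely mapped reads per Ensembl gene. The annotation release and strand setting are not given in the sources used here, and the sample labels name both mRNA libraries and a total RNA kit, which would change the RNAs counted.

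Genes reaching 1 CPM in 3 or more libraries were scaled with TMM and tested in R 4.3.3 with edgeR 4.0.16 (quasi-likelihood, genotype as the only term, Benjamini-Hochberg over all genes, threshold 0.05). CPM used library totals over the kept genes, and RPKM used exon unions of GENCODE M21, in which 558 identifiers are absent. The SE was the log2 change divided by the square root of the F value. The study used edgeR's likelihood-ratio test and voom, which were run as alternatives (limma 3.58.1) with DESeq2 1.42.0, RLE and upper-quartile scaling, no filter, a minimum of 10 counts in every library, the older quasi-likelihood form, a replicate block, and fits without each library in turn. Ratios of CPM were compared with exact permutation tests. Scripts were tested on simulated data. The 10 genes and the gene lists were chosen with earlier results of these data known. In each pathway list, genes at an adjusted p below 0.05 are named and, where fewer than 3 passed, those with the lowest p up to 3, and marker lists are given as sums. Counts from each library limit precision, most of all for *Bbc3*.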

Additional observations from a re-analysis of the deposited data

How the results depend on the processing

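The number of genes changed was 288 in the quasi-likelihood test and became 497 with no filter, 1568 with the likelihood-ratio test, 1590 with DESeq2 and 0 with the replicate block (2949 genes at an unadjusted p below 0.05), and 0 to 816 with 1 library left out. It was 0 without WT2, WT3 or TG3 (2725, 2844 and 3692 genes at an unadjusted p below 0.05), 142 without WT1, 86 without TG1 and 816 without TG2. Of the 10 genes, 2 were called with the likelihood-ratio test and 2 with DESeq2 (*Gadd45a* and *Pawr* each time), and 0 in every other fit. Genes of the pathway lists called were 2, and 4 with RLE scaling, 5 with upper-quartile scaling, 11 with the likelihood-ratio test, 12 with DESeq2, 0 with the replicate block and 0 to 7 with 1 library left out. The genes among the 10 whose groups did not overlap were 3 (2 under RLE and upper-quartile scaling, without *Bax*, which also overlapped without WT1, TG1 or TG2) and 2 to 5 with 1 library left out, with 5 without WT3 and 5 without TG3, and included *Gadd45a* and *Pawr* in every setting. The log2 change of *Gadd45a* stayed between −0.82 and −0.57 with 1 library left out (adjusted p 0.0564 to 0.190 in edgeR) and between −0.75 and −0.72 in the other fits (0.00355 to 0.169), and that of *Pawr* between −0.54 and −0.37 (0.0561 to 0.190) and −0.48 and −0.45 (0.0134 to 0.172). In the replicate block fit they were −0.75 (adjusted p = 0.169) and −0.48 (adjusted p = 0.172). The sample labels do not pair the mice by replicate number. The deviations of WT and TG libraries with the same number correlated at −0.35, −0.26 and −0.07. For libraries with different numbers these values were −0.06 to 0.29. Deviations from a mean of 3 libraries depend on each other, so these correlations cannot decide whether mice were paired. Log2 changes of single genes that turned sign were those of *Trp53* (0.0075 with upper-quartile scaling, −0.0435 to 0.0294 with 1 library left out), *Mdm2* (−0.1165 to 0.0225) and *Cdkn1a* (−0.0294 to 0.2299), none of which passed the test. *Bax* ranged from −0.27 to −0.14 (without TG1) and *Trp63* from 0.05 to 0.13 with 1 library left out. Of the 7 ratios, *Bax* to *Bcl2l1* (−0.04) turned sign without WT1 (0.0493), WT3 (0.0035) or TG2 (0.0012) and *Mdm2* to *Trp53* (−0.03) without TG1 (0.0114), and the exact permutation test used for ratios cannot go below p = 0.1 with 3 against 3 libraries. The cause of these shifts was not tested.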
